A study of Homo sapiens with 4 samples.

Results

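The regions described here are the H4K5la peaks of chromosome 7 whose centre lies 3 Mb or more from the start of the chromosome, that is, beyond the crowded tip of its short arm. Position alone decides which peaks belong, but the part was chosen with earlier results of these data known. There were 300 such peaks among 2743 in the DNAJC12KO list (10.9%, interval 9.79 to 12.2%) and 216 among 1937 in the WT list (11.2%, interval 9.78 to 12.6%), counted on chromosomes 1 to 22, X and Y. H4K5la, lactylation of lysine 5 of histone H4, was mapped by chromatin immunoprecipitation and sequencing. The cells were SH-SY5Y, a human neuroblastoma line. DNAJC12KO cells, in which the co-chaperone gene DNAJC12 was knocked out, were set against wild-type (WT) cells of the same line. Each genotype had 1 immunoprecipitated and 1 input library, 4 in all, and contributed 1 peak list. Whether the knockout line is a single clone is not given in the sources used here. With 1 library per group, no test between genotypes was possible, and every difference given below lacks a replicate check. Each interval is the 95% one of the exact binomial (Clopper-Pearson) method, which accounts for counting error alone. The lists hold no read counts, so the depth of the libraries is unknown. Each peak carries the authors' fold enrichment over local background and -log10 q, the caller's adjusted significance, both averaged over the peak and used here as descriptions that order the peaks of 1 list. The inferred background, in scaled fragments, is an approximate estimate from the fold and the -log10 p of a peak. A gene record is the span of a protein-coding gene in RefSeq, and the stretch is chromosome 7 from 3 Mb to its end.

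Lactylation is a modification of lysine that draws on lactate, and on histones it has been linked to active chromatin. Chromosome 7 carries the HOXA homeobox cluster, the gene-dense Williams-Beuren region, and large neuronal adhesion and receptor genes. The last few Mb of its long arm, before the subtelomere, are gene-poor. SH-SY5Y cells are known to carry extra material of chromosome 7, of the short arm of chromosome 2 and of the long arms of chromosomes 1 and 17.

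Peaks on gene starts were few. RefSeq (GRCh38.p14) gave the window from 250 bases before to 50 after the start for 768 of the 899 protein-coding genes of the stretch. A DNAJC12KO peak touched such a window at 6 genes (0.781%) and a WT peak at 5 (0.651%). Over all chromosomes it was 39 and 22 of 15843 genes, or 0.246% and 0.139%. MYO1G, a class I myosin of blood cells, was the gene found in both. The 250 bases before the start are shown for the 4 genes whose touching peak had the highest -log10 q, with every CpG in capitals. MYO1G (chr7:44979016-44979265, minus strand) was covered whole by a peak of each list. MYL7, an atrial myosin light chain gene (chr7:44141333-44141582, minus strand), and the mucin gene MUC12 (chr7:100969315-100969564, plus strand) were covered whole by a DNAJC12KO peak. At MNX1, the motor neuron homeobox gene, the window belongs to a start inside the gene record (chr7:157009436-157009685, minus strand), and a WT peak reached the last 14 bases.
MYO1G: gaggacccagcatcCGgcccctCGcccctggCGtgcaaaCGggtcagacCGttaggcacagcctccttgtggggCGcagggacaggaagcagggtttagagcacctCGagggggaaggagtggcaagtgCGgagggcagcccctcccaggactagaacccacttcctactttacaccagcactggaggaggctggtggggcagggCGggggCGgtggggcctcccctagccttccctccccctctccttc
MYL7: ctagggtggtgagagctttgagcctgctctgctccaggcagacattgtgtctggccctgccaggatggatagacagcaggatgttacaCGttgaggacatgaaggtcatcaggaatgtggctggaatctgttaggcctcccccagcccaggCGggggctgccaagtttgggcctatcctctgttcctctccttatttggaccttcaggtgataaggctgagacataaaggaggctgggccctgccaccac
MUC12: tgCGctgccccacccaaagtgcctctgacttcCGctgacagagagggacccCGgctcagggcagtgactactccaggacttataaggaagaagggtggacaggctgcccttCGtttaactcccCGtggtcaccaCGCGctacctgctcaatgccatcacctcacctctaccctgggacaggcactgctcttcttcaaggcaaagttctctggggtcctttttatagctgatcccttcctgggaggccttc
MNX1: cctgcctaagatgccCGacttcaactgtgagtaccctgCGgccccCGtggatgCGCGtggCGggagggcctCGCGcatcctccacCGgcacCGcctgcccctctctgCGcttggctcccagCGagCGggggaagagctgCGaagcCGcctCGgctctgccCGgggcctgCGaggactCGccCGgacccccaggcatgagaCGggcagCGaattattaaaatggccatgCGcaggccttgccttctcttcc

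These windows ran from CpG-poor to CpG-rich. MYL7 held 2 CpGs, MUC12 7, MYO1G 10 and MNX1 23, against a median of 16 over the 1067 windows of protein-coding genes of the stretch and 16 over all 22199 such windows. Their G and C content was 56.4% at MYL7, 57.6% at MUC12, 67.2% at MYO1G and 68.4% at MNX1, with a median of 62% in both sets of windows. The GC box, GGGCGG or CCGCCC, was found in MYO1G among these 4 and in 4 of the 11 windows that a peak touched. The 11 windows belong to 10 genes, because NOS3 has a pair of overlapping windows under 1 WT peak, both with the box. The box is present in 50.3% of the windows of the stretch and in 53.7% of all windows. Counting peak centres, 8.00% of DNAJC12KO peaks and 9.72% of WT peaks lay within 3 kb of the start of a protein-coding gene whose strand was known. Within 3 kb of the end of such a gene lay 12.3% and 17.1%. On the other chromosomes the shares at starts were 6.38% (DNAJC12KO) and 7.99% (WT), and at ends 14.4% and 15.5%.

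Both genotypes placed their peaks in the same few stretches. Of 157 bins of 1 Mb, 95 held no peak of either list, while the 10 fullest bins held 55.3% of the DNAJC12KO and 57.9% of the WT peaks. At least 5 peaks were found in 22 bins of the DNAJC12KO list and 17 of the WT list, and all 17 were among the 22. Across the bins, the DNAJC12KO and WT counts had a Spearman correlation of 0.73. Each list also followed gene number, with a Spearman correlation of 0.46 for DNAJC12KO and 0.54 for WT peaks against protein-coding genes per bin. The bins share gene density, copy number and mappability between the lists, so these correlations are descriptions.

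**Figure D1:**
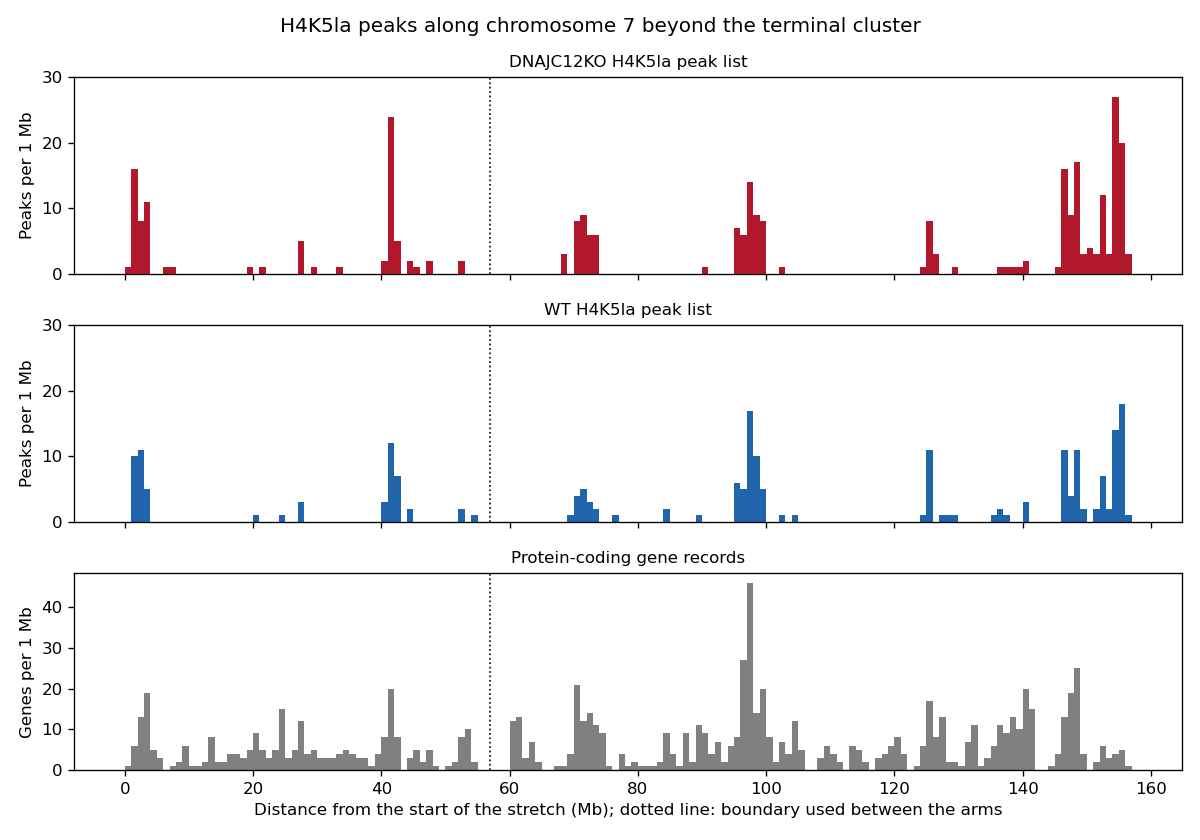
Number of H4K5la peaks per 1 Mb in the DNAJC12KO list (top) and the WT list (middle), and of protein-coding gene records (bottom), against the distance in Mb from the start of the stretch. The tallest bars of both lists include the distal end of the long arm, with 27 and 20 DNAJC12KO and 14 and 18 WT peaks in 2 neighbouring bins that hold 4 and 5 genes.

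The long arm held most peaks of both lists. Taking 60 Mb as the boundary between the arms, 215 of 300 DNAJC12KO peaks (71.7%, interval 66.2 to 76.7%) and 158 of 216 WT peaks (73.1%, interval 66.7 to 78.9%) lay on the long arm, which has 70.7% of the protein-coding genes of the stretch. The density there was 2.17 DNAJC12KO and 1.59 WT peaks per Mb, and on the short arm beyond 3 Mb it was 1.49 and 1.02. No peak of either list lay between 57203761 and 71132830, a span of 13.9 Mb that includes the centromere and 40 protein-coding gene records. The longest stretch without any peak was on the long arm, from 107956813 to 127088224. Its 19.1 Mb hold or touch 60 protein-coding genes, among them the receptor kinase gene MET, the caveolin genes CAV1 and CAV2, the language-related factor FOXP2 and the chloride channel gene CFTR. A further 11.7 Mb of the short arm, around the histone deacetylase gene HDAC9 and TWIST1, had none. Neither did 8.66 Mb of the long arm with the semaphorin genes SEMA3A, SEMA3C, SEMA3D and SEMA3E and the presynaptic scaffold gene PCLO.

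Local clusters were defined as at least 5 peaks linked by gaps of 100 kb or less. With both lists pooled there were 27 clusters, 7 on the short and 20 on the long arm, which took 385 of the 516 peaks (74.6%) within 6.66 Mb. All 27 contained peaks of both genotypes. Taken alone, the DNAJC12KO list formed 17 clusters with 55.3% of its peaks, and the WT list 11 clusters with 45.8%. Of these, 10 DNAJC12KO clusters met a WT cluster and 8 WT clusters met a DNAJC12KO cluster.

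The largest pooled cluster, 157280346 to 158549735, held 45 DNAJC12KO and 30 WT peaks in 1269 kb and lay mostly in PTPRN2. Next came a gene-dense cluster at 100470672 to 101236689, with 19 DNAJC12KO and 21 WT peaks over 34 protein-coding genes, among them LRCH4, the collagen-modifying enzyme gene PLOD3 and the ephrin receptor gene EPHB4. The third, at 150801256 to 151275533, held 17 and 11 peaks around AGAP3, the mitochondrial transporter gene ABCB8 and the endothelial nitric oxide synthase gene NOS3. On the short arm the largest was at 44058098 to 44381170, with 16 DNAJC12KO and 7 WT peaks around CAMK2B and AEBP1. It was followed by 4722246 to 4903839 (10 and 8 peaks), around RADIL and AP5Z1. A cluster at 149677252 to 149867168 held 10 peaks of each list, of which 7 DNAJC12KO and 5 WT peaks lay in the pseudogene SSPOP. Of the protein-coding genes there, KRABD3 had 4 WT peaks and no DNAJC12KO peak within 60.9 kb, and ZNF862 had 3 DNAJC12KO peaks.

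PTPRN2 carried more peaks than any other gene of the stretch in each list. It encodes phogrin, a receptor-type tyrosine phosphatase of dense-core secretory vesicles in neuroendocrine cells, and its record (gene ID 5799) spans 157539056 to 158587823, a length of 1049 kb. DNAJC12KO had 37 peaks in it (12.3% of its peaks in the stretch) and WT had 26 (12.0%). That is 3.53 DNAJC12KO and 2.48 WT peaks per 100 kb, against 0.169 and 0.122 in the rest of the stretch. Fold enrichment there ran from 3.08 to 3.98 with a median of 3.43 in the DNAJC12KO list, and from 3.35 to 4.72 with a median of 3.84 in the WT list. Only 4 peaks of each list overlapped a peak of the other by at least 1 bp. Within 10 kb, 20 DNAJC12KO peaks and 16 WT peaks had a peak of the other genotype.

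Within PTPRN2 the widest difference in peak number was at the low-coordinate end. Counted in 5 equal stretches of the record from that end, the DNAJC12KO peaks numbered 10, 6, 10, 5 and 6, and the WT peaks 1, 7, 5, 6 and 7. PTPRN2 is known to be transcribed towards lower coordinates, so the stretch counted at the start is its downstream end. In that stretch the highest DNAJC12KO -log10 q was 1.71, and the single WT peak there had 2.04 and overlapped a DNAJC12KO peak. The inferred background under the peaks of the gene had a median of 2.32 for DNAJC12KO and 1.93 for WT.

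**Figure D2:**
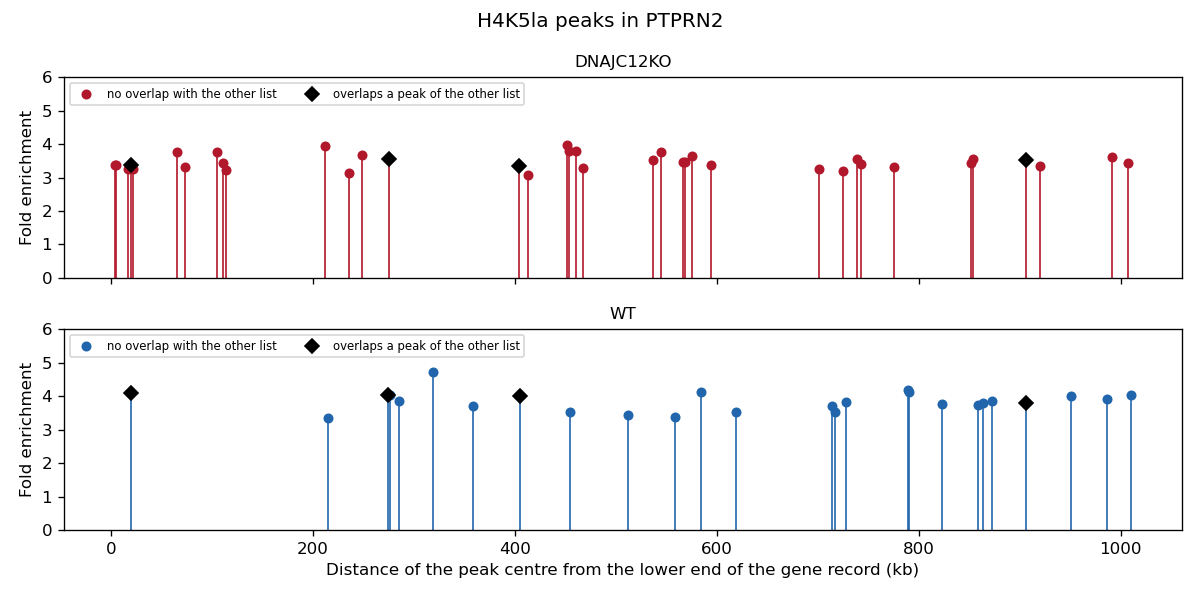
Fold enrichment of each H4K5la peak in PTPRN2 against the distance in kb of its centre from the lower end of the gene record, for DNAJC12KO (top) and WT (bottom). Black diamonds mark the 4 peaks of each list that overlap a peak of the other, and the lowest of 5 equal stretches of the record holds 10 DNAJC12KO peaks and 1 WT peak.

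Several further genes carried repeated peaks. At least 3 peaks lay in the record of 20 protein-coding genes in the DNAJC12KO list (2.22% of 899) and of 12 in the WT list (1.33%). Over all chromosomes the shares were 0.764% and 0.509% of 20037 genes. Both lists shared 7 of these genes: PTPRN2, RADIL, TNRC18, MYO1G, SH2B2, FLNC and AGAP3. SDK1, AP5Z1, DAGLB, GRID2IP, MINDY4, CAMK2B, CLIP2, SRRM3, TECPR1, MYH16, ZNF282, ZNF862 and DPP6 reached 3 peaks in the DNAJC12KO list alone. FBXL18, ZNF316, NACAD, LRCH4 and KRABD3 did so in the WT list alone.

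CAMK2B, the beta subunit of the calcium/calmodulin-dependent kinase of synapses (44217154 to 44326013, 109 kb), had 11 DNAJC12KO and 2 WT peaks. The DNAJC12KO peaks lay between 44225874 and 44287976, with folds of 3.21 to 3.82 and -log10 q of 1.14 to 1.78, and 0 of them overlapped a WT peak. The WT peaks were at 44220272 to 44220566 (fold 4.08, -log10 q 1.74) and 44282522 to 44282942 (fold 3.37, -log10 q 1.44). All 13 peaks of this gene were below a -log10 q of 2, while the lowest values here were 1.05 for DNAJC12KO and 1.07 for WT peaks.

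RADIL, an effector of Rap GTPases in cell adhesion (4797055 to 4883716), had the opposite order, with 4 DNAJC12KO and 7 WT peaks. A pair of DNAJC12KO peaks, with folds of 3.47 each, overlapped WT peaks of fold 3.94 and 3.62. FBXL18, an F-box gene (5454425 to 5513809), had 1 DNAJC12KO peak and 5 WT peaks. The DNAJC12KO peak, at 5500446 to 5501303, met the last of the WT peaks over 9 bp.

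The short gene MYO1G (44962662 to 44979015, 16.4 kb) had 4 DNAJC12KO and 3 WT peaks, or 24.5 and 18.3 per 100 kb. Its start, whose sequence is given above, lay under a DNAJC12KO peak of fold 3.30 and a WT peak of fold 4.02. A second pair overlapped further inside the gene, with a fold of 3.36 in DNAJC12KO and 4.30 in WT cells. FLNC, the muscle filamin, had 3 peaks in each list, and TNRC18, a chromatin reader gene, had 5 DNAJC12KO and 3 WT peaks. AGAP3, a GTPase-activating protein of the postsynapse, had 5 and 3, and CLIP2, a microtubule-binding protein of the Williams-Beuren region, 4 and 2. SDK1, an adhesion molecule of synapses, had 5 and 2 peaks in 968 kb, or 0.517 and 0.207 per 100 kb.

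**Figure D3:**
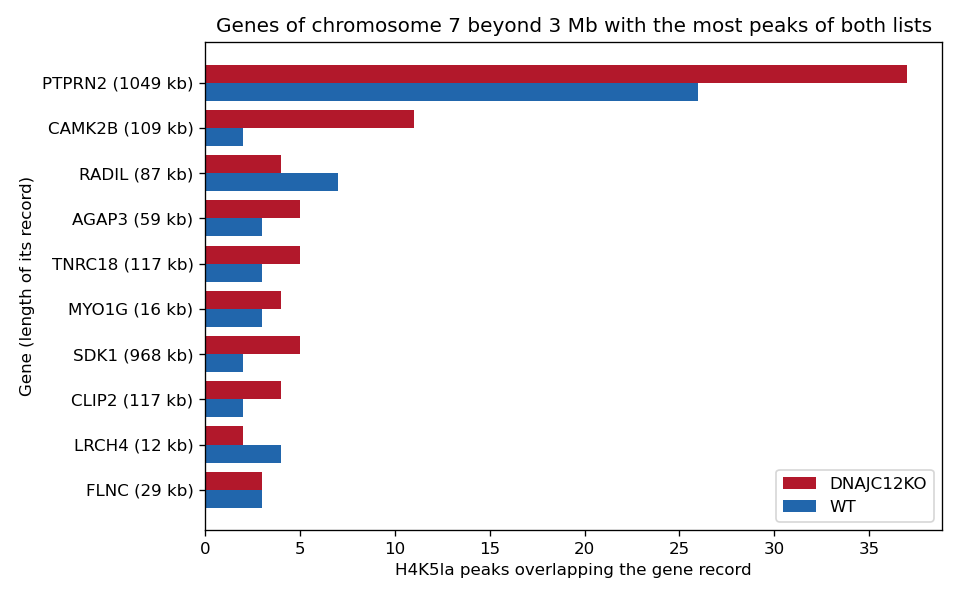
Number of H4K5la peaks that overlap the record of each of the 10 genes with the most peaks of both lists together, with DNAJC12KO above WT for each gene and the record's length in brackets. PTPRN2 leads with 37 DNAJC12KO and 26 WT peaks, and CAMK2B shows the widest gap among the others, with 11 and 2.

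Peaks of the 2 genotypes seldom lay at the same bases, although they were close to each other. An overlap of 1 bp or more with the WT list was found for 28 of 300 DNAJC12KO peaks, or 9.33% (interval 6.29 to 13.2%). In the other direction it was found for 28 of 216 WT peaks, or 13.0% (interval 8.79 to 18.2%). Over the whole lists the shares were 6.31% and 8.88%. On the chromosomes other than 7 they were 5.04% (interval 4.19 to 6.01%) and 7.24% (interval 6.02 to 8.62%). The first 3 Mb of chromosome 7 had higher shares than the stretch, 22.95% for DNAJC12KO and 23.53% for WT peaks. A peak of the other list lay within 10 kb for 37.3% of DNAJC12KO peaks (interval 31.8 to 43.1%) and 49.5% of WT peaks (interval 42.7 to 56.4%), against 29.7% and 40.2% in the whole lists. Within 100 kb it was 80.7% and 81.0%, against 63% and 77% in the whole lists. For the first 3 Mb of the chromosome the share within 10 kb was 78.69% (DNAJC12KO) and 77.31% (WT), also above the stretch. The median distance to the other list was 19.3 kb for DNAJC12KO peaks and 10.3 kb for WT peaks, and on the other chromosomes it was 58.5 kb and 24.6 kb. A higher density of peaks shortens such distances, and its part in the difference was not tested. Short-arm peaks overlapped in 14.1% of DNAJC12KO peaks (12 of 85, interval 7.51 to 23.4%) and 22.4% of WT peaks (13 of 58, interval 12.5 to 35.3%). On the long arm the shares were 7.44% (16 of 215, interval 4.31 to 11.8%) and 9.49% (15 of 158, interval 5.41 to 15.2%). The intervals of the arms overlap, which does not show that the shares are alike, and the difference was not tested.

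**Figure D4:**
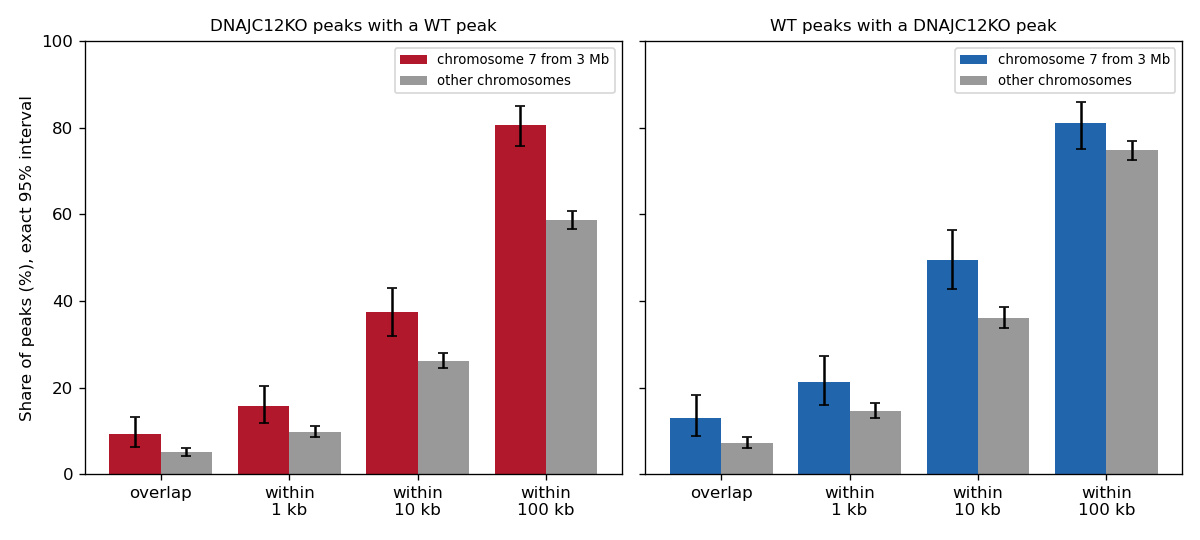
Share of peaks, with exact 95% intervals as error bars, that overlap a peak of the other genotype or lie within 1, 10 or 100 kb of one, for DNAJC12KO peaks (left) and WT peaks (right). Coloured bars are chromosome 7 from 3 Mb, with 9.33% (DNAJC12KO) and 13.0% (WT) overlapping, and grey bars are the other chromosomes, with 5.04% and 7.24%.

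The overlaps formed 29 pairs, 13 on the short and 16 on the long arm. They spanned 9 to 881 bp with a median of 279 bp, and in 16 pairs at least 50% of the shorter peak was covered. The WT peak had the higher fold in 21 of the 29 pairs. Folds of the 2 libraries are not on a common scale of depth, so this order describes the lists and not the amount of the mark. Of the pairs, 25 lay in or within 3 kb of a protein-coding gene, and 17 genes were involved.

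The pair with the best lower value was at NACAD, a gene of the nascent polypeptide-associated complex family (45080437 to 45088969). A DNAJC12KO peak at 45084784 to 45085879, with a fold of 4.80 and the highest -log10 q of its list here (3.39), bridged WT peaks of fold 4.09 and 3.84. ZNF282, a zinc finger gene, showed the mirror image. One WT peak at 149224673 to 149226268, with a fold of 5.14 and the highest WT -log10 q here (3.43), enclosed 2 DNAJC12KO peaks of fold 3.73 and 4.10. At AP5Z1, an adaptor complex subunit gene, the folds were 3.86 in DNAJC12KO and 4.04 in WT cells, and at TNRC18 they were 4.01 and 4.13. LRCH4 had 3.98 and 3.85, and CLIP2 4.51 and 3.93. The longest overlap, 881 bp, was at ZNF316 (3.49 and 3.78).

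Among the other top-ranked peaks, some overlapped no peak of the other list. In the DNAJC12KO list they included a peak inside TRIP6, a LIM-domain protein of focal adhesions (100868584 to 100868977, fold 5.07, -log10 q 3.28), with a WT peak 0.738 kb away. Another lay outside annotated genes, 5.14 kb from RHBDD2 (75894066 to 75894394, fold 4.88). In the WT list a peak inside the kinase gene HIPK2 (139635752 to 139636054, fold 4.79, -log10 q 3.17) had its nearest DNAJC12KO peak 51.7 kb away. One in PTPRN2 (157857432 to 157857831, fold 4.72) was 43.2 kb from the nearest DNAJC12KO peak. Of the peaks here, 41 from DNAJC12KO cells (13.7%) and 26 from WT cells (12.0%) had a -log10 q of 2 or more, against 9.99% and 10.4% in the whole lists.

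Peaks at the ends of genes were counted within 3 kb of either end of the record. There were 74 such protein-coding genes for DNAJC12KO (8.23% of 899) and 70 for WT (7.79%), against 3.85% and 3.18% over all chromosomes. They had 22 genes in common, which is 29.7% of the DNAJC12KO and 31.4% of the WT genes, against 20.9% and 25.3% over all chromosomes. Counted anywhere in the record, the numbers were 110 DNAJC12KO and 106 WT genes (12.2% and 11.8%, against 7.12% and 5.53% over all chromosomes), with 55 in common. The 55 genes are 50% of the DNAJC12KO and 51.9% of the WT genes, against 35.5% and 45.6% over all chromosomes.

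Among genes whose ends carried DNAJC12KO peaks, and whose records had no WT peak within 3 kb, the highest -log10 q was at the cadherin gene CDHR3 (fold 4.26, -log10 q 2.49). It was followed by the Integrator subunit gene INTS15 (4.42, 2.26) and the ATP synthase subunit gene ATP5MF (4.41, 2.25). MYL7 had a peak on its start (4.03, 2.17). The autophagy gene WIPI2 (3.96, 2.02), the mitochondrial ribosome gene MRPS24 (4.19, 2.00) and the myosin gene MYH16 (4.01, 2.00) followed. The peaks counted for CDHR3, ATP5MF and MRPS24 lay outside their records. The longer joint records ATP5MF-PTCD1 and URGCP-MRPS24, which include ATP5MF and MRPS24, held 2 and 1 WT peaks.

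In the WT list alone, the vacuolar ATPase gene ATP6V1F and SPMIP1 shared the best peak (fold 4.71, -log10 q 2.76). Next were NPTX2, a pentraxin of synapses (4.46, 2.62), and MNX1 (4.72, 2.58), whose nearest DNAJC12KO peak lay 279 kb away. The interferon regulatory factor IRF5 (4.47, 2.21), the receptor-modifying protein gene RAMP3 (3.84, 1.96), the DNA polymerase subunit gene POLD2 (3.98, 1.78) and TSC22D4 (4.01, 1.78) followed. The peaks counted for ATP6V1F and POLD2 lay outside their records. That of POLD2 lay inside AEBP1, which also had a DNAJC12KO peak, and another WT peak lay inside POLD2 (4.36, 2.10). With 1 library each, a gene seen in 1 list only is a gene with no called peak in the other list, which does not show that the mark was absent.

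Gene groups of the chromosome were counted with a peak in the record or within 3 kb of it. Over the stretch this held for 127 of 899 genes for DNAJC12KO (14.1%) and 125 for WT (13.9%), and over all chromosomes for 8.23% and 6.46%. Of 28 genes of neural development and synapse, 6 had a DNAJC12KO peak and 11 a WT peak, 5 of them in both lists. PTPRN2, STX1A (syntaxin of the synaptic vesicle release machinery), the semaphorin receptor PLXNA4, CALN1 and the potassium channel partner DPP6 were those in both. NPTX2, MNX1, ACHE (acetylcholinesterase), EN2, SHH (the sonic hedgehog ligand) and MAGI2 had a WT peak only, and GRM8 a DNAJC12KO peak only. At the gene ends the counts were 0 of 28 in DNAJC12KO and 5 of 28 in WT cells. Of all 899 genes of the stretch, 8.23% and 7.79% had a peak at an end. The difference between these small counts was not tested.

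Cytoskeleton and matrix genes had 8 of 22 members in the DNAJC12KO list and 11 of 22 in the WT list, and all 8 were among the 11. They were SDK1, RADIL, MYO1G, TNS3, LIMK1, PLOD3, FLNC and ZYX, and the WT list added FSCN1, ARPC1B and LAMB1. The laminin gene LAMB1 carried a WT peak of fold 4.32 (-log10 q 2.21), at the edge of the longest peak-free stretch. This list was written with the repeated peaks of some of its genes known. In the Williams-Beuren region, 8 of 26 genes had a DNAJC12KO peak and 5 a WT peak. STX1A, LIMK1 and CLIP2 were in both lists.

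Chromatin and transcription genes had 6 of 18 members in DNAJC12KO cells and 3 of 18 in WT cells, with CUX1 and SMARCD3, a subunit of the SWI/SNF remodeller, in both. The WT peak counted for SMARCD3 lay just outside its record. TRRAP, a subunit of histone acetyltransferase complexes, had a DNAJC12KO peak of fold 3.59 (-log10 q 1.61) and no WT peak. Growth factor and kinase genes had 5 of 25 in each list, 4 of them shared: RADIL, CAMK2B, EPHB4 and EPHA1. EPHA1 had no peak inside its record, and the peak counted for it in each list lay inside its neighbour ZYX. RADIL and CAMK2B are among the 10 genes with the most peaks, and RADIL is also in the cytoskeleton list. Like the other lists, this one was chosen with earlier results of these data known. EGFR had no peak within 66.4 kb in DNAJC12KO and 253 kb in WT cells. Ion channels and transporters had 4 of 15 in each list, with ABCB8, the proton-gated channel ASIC3 and the anion exchanger SLC4A2 in both. The WT peak of ASIC3 lay outside its record, inside CDK5, and was counted for CDK5 and SLC4A2 as well. SLC4A2 had another WT peak inside its record.

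Metabolic genes had 3 of 20 members in the DNAJC12KO list (15%) and 2 of 20 in the WT list (10%), with POR and NOS3 in both. POR, the reductase that serves the cytochrome P450 enzymes, had 3 DNAJC12KO peaks in or near its record, of fold 4.07, 4.01 and 4.14, and 2 WT peaks of fold 3.59 and 3.75. The nitric oxide synthase gene NOS3 had its WT peak on a start inside its record (150993185 to 150994042, fold 3.60) and its DNAJC12KO peaks further inside (fold 3.63 and 3.81). DDC, which makes dopamine and serotonin from the products of the hydroxylases that DNAJC12 serves, had no peak. The nearest was 246 kb away in the DNAJC12KO list and 2973 kb in the WT list.

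The HOXA cluster had 0 of 12 genes for DNAJC12KO and 1 for WT, HOXA9 (27164251 to 27164708, fold 3.47, -log10 q 1.30). None of the 10 imprinted genes had a peak in either list. Of the 6 heat shock and co-chaperone genes, DNAJC30 had a DNAJC12KO peak 0.921 kb from its record (fold 3.94), and DNAJB6 had a WT peak (fold 3.82), with a DNAJC12KO peak 5.96 kb away.

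The 3 mucin genes of the long arm, MUC3A, MUC12 and MUC17, had peaks in the DNAJC12KO list alone. These membrane mucins lie side by side and contain long arrays of repeated sequence. Their peaks were at 100959496 to 100960044 (fold 2.93), 100966985 to 100967645 (3.05), 100968708 to 100969928 (3.38), 100975199 to 100975499 (3.15) and 101019841 to 101020543 (3.78). Fold 2.93 was the lowest of the DNAJC12KO peaks here. The first 4 of these peaks had the highest inferred backgrounds of the DNAJC12KO list in the stretch, at 3.91, 4.58, 4.03 and 4.51 fragments. As the background is computed from the fold and -log10 p, their low folds and high backgrounds are not separate observations. The next highest background was 3.35, inside PTPRN2. In the WT list the nearest peak to MUC3A was 55.6 kb away and to MUC17 30.1 kb. The part of repeated sequence or copy number in these peaks was not tested.

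Peaks of the stretch were about as wide as elsewhere, with a slightly lower median fold and a higher inferred background. The fold and the background are not separate observations, because the background is computed from the fold and -log10 p. At a like -log10 p, a lower fold gives a higher background. The median width was 461.5 bp (range 293 to 1679 bp) for DNAJC12KO and 474.5 bp (279 to 1647 bp) for WT peaks, and 457 and 448 bp on the other chromosomes. Median fold was 3.60 (2.93 to 5.07) for DNAJC12KO and 3.71 (3.13 to 5.14) for WT peaks, against 3.70 and 3.82 on the other chromosomes. Median -log10 q was 1.52 and 1.46, against 1.47 in each list there. A fold of at least 4 was reached by 14.3% of DNAJC12KO and 23.1% of WT peaks, against 17.3% and 28.3% in the whole lists.

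A local background for every peak was back-calculated from its deposited fold and -log10 p. Its median was 2.13 fragments in DNAJC12KO and 1.95 in WT cells, against 1.70 and 1.59 on the other chromosomes, a ratio of 1.26 and 1.23. In the DNAJC12KO list 89% of the peaks, and in the WT list 89.4%, lay above the median of the other chromosomes. Chromosome 7 from 3 Mb ranked second of the 22 chromosomes with at least 10 DNAJC12KO peaks and second of the 23 with at least 10 WT peaks, behind chromosome 17 in both (2.15 and 1.95). The arms had like medians, 2.15 (short) and 2.13 (long) in DNAJC12KO and 1.98 and 1.93 in WT cells. The first 3 Mb of the chromosome had 2.21 and 1.89. The part of this background, or of the known extra copies of the chromosome, in the number of peaks was not tested.

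**Figure D5:**
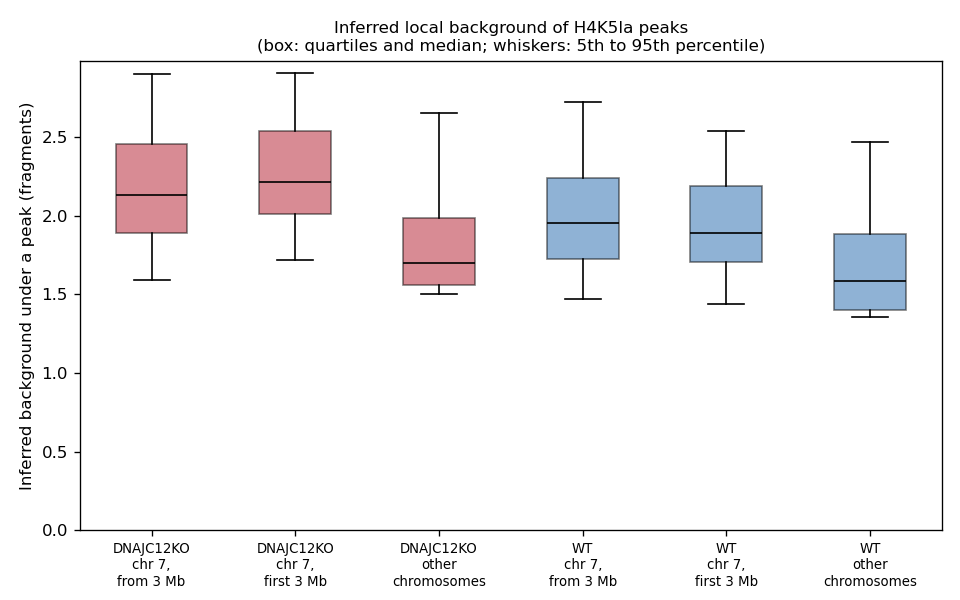
Inferred background in fragments under the peaks of chromosome 7 from 3 Mb, of its first 3 Mb and of the other chromosomes, for DNAJC12KO (left) and WT (right). Boxes show the median and quartiles and whiskers the 5th and 95th percentiles, and the medians from 3 Mb, 2.13 (DNAJC12KO) and 1.95 (WT), lie above those of the other chromosomes, 1.70 and 1.59.

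Each peak centre was put in 1 class. Centres at most 3 kb from either end of a gene record were set aside first, whether inside or outside it. Of those left, 55 DNAJC12KO centres lay outside annotated genes (18.3% of all in the list here, interval 14.1 to 23.2%). In the WT list 20 did so (9.26%, interval 5.75 to 13.9%). On the other chromosomes the shares were 14.0% and 9.74%. Elsewhere inside a protein-coding gene lay 58% of DNAJC12KO and 60.2% of WT centres, and within 3 kb of an end 19% (interval 14.7 to 23.9%) and 25.5% (interval 19.8 to 31.8%). On the other chromosomes these shares were near, at 58.4% and 60.7% inside genes and 22.9% and 26.0% at gene ends. The stretch is bounded by a gap: the last peak before 3 Mb was at 2713820 to 2714372 (DNAJC12KO, fold 3.51) and 2735178 to 2735735 (WT, fold 3.56). The first peak after it was at 3188624 to 3189130 (DNAJC12KO, fold 3.71) and 4171691 to 4172048 (WT, fold 3.57).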

How the data were processed

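Genomic DNA from 1 H4K5la immunoprecipitation and 1 input per genotype was sequenced. Per the labels' protocols, DNAJC12KO and WT cells were fixed in formaldehyde, sonicated and incubated with an H4K5la antibody; spike-in chromatin was added. The submitters' processing notes name MACS2 2.2.6 and hg38. The aligner, calling options, control and any spike-in scaling are not given there or in the labels. The authors deposited 1 broad peak list per genotype, taken as belonging to the immunoprecipitated library, although the descriptions name it for both libraries of a genotype. Peaks were thus called per library. Per the file format, the deposited values are a score (not used), a fold enrichment over background (a linear ratio), and -log10 p-values and q-values, each an average over the peak. The number of columns of other samples was 0.

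Genes (20037 protein-coding) and gene start sequences came from RefSeq tables of GRCh38.p14, and strands from the latter; no genome sequence was used. Coordinates are 1-based. Overlap needed at least 1 bp. The arm boundary was set at 60 Mb, inside the centromeric region. The inferred background b solves (k + 1)/(b + 1) = fold with the Poisson upper tail of k equal to p (larger solution). It is approximate and model-based. Calculations used Python 3.11.15, numpy 2.4.6, scipy 1.17.1, pandas 2.3.3 and matplotlib 3.10.9, and were tested on simulated data. For the inferred background these followed the same formula without averaging over a peak, so that test covers the arithmetic alone. The members, gene lists and settings were chosen with earlier results of these data known. Named genes are the 10 with most peaks, the 8 best overlapping pairs, the 8 best genes seen in 1 list only, the 5 best peaks per list, the leading genes of the 8 largest clusters and the best list members. Genes named for peak-free stretches, and EGFR and DDC, were chosen otherwise, as were list members given in full. A gene that these rules name is not reported here.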

Additional observations from a re-analysis of the deposited data

How the results depend on the processing

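No paired analysis was possible because each genotype had 1 library. At a -log10 q of at least 2, the DNAJC12KO list held 41 peaks and the WT list 26, with 2.44% and 3.85% overlapping, 21 and 7 genes with a peak at an end, and 1 and 0 genes with at least 3 peaks. At a fold of at least 4 the order of the peak numbers was the opposite, 43 DNAJC12KO and 50 WT peaks, with 9.30% and 8.00% overlapping, 20 and 12 genes at an end, and 0 and 2 genes with at least 3 peaks. With the DNAJC12KO list cut to the length of the WT list it held 214 peaks here, close to the 216 of WT, and the shares overlapping were 9.81% and 9.72%. Counting only overlaps of at least 50% of the shorter peak, the shares were 5.33% and 6.94%. With gaps allowed they were 15.7% and 21.3% (1 kb) or 37.3% and 49.5% (10 kb). Genes with a peak at an end numbered 32 and 34 with 1 kb windows, 139 and 125 with 10 kb windows, and 127 and 125 with the whole record and 3 kb beside it counted. Clusters of at least 10 peaks numbered 9 and 4, and genes with at least 5 peaks 5 and 3. Linking distances of 50 or 200 kb gave 15 to 20 DNAJC12KO and 9 to 13 WT clusters. A start at 5 Mb left 283 and 206 peaks. Leaving out PTPRN2, an alternative chosen after seeing the data, left 263 and 190 peaks, with 9.13% and 12.6% overlapping. The stricter thresholds remove most peaks by construction. For the other settings the cause was not tested. Unknown depth limits every comparison of peak numbers and folds between the lists.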

Other observations

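The pseudogene SSPOP, related to the SCO-spondin gene of other vertebrates, carried the most peaks of any non-coding record of the stretch (149776042 to 149833965), with 7 DNAJC12KO and 5 WT peaks. It was named after its values were seen. A DNAJC12KO peak at 149813580 to 149814120 (fold 4.18, -log10 q 2.69) was among the 5 best of its list, and 1 pair of peaks overlapped in the gene, with folds of 3.40 in DNAJC12KO and 3.77 in WT cells.

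Of 64 miRNA hairpins in the RefSeq table for this stretch, 1 was touched by a DNAJC12KO peak and 1 by a WT peak. The share over all chromosomes is not given here, so these counts cannot be called high or low. MIR4656, inside AP5Z1, lay under a DNAJC12KO peak of fold 4.05 (-log10 q 2.39). MIR671 was reached by a WT peak of fold 3.75 (-log10 q 1.73). Other hairpins lay near a peak without being touched. A DNAJC12KO peak was 53 bp from MIR4285 (fold 3.81) and another 70 bp from MIR129-1 (fold 3.44). A WT peak was 14 bp from MIR4649 (fold 3.75) and another 96 bp from MIR6838 (fold 3.42).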
